A study of Rattus norvegicus with 12 samples.

Results

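The genes described here encode 10 proteins that neurons use to build and steer growing axons: 5 collapsin response mediator proteins (CRMPs; Dpysl2, Dpysl3, Dpysl4, Dpysl5 and Crmp1), 3 stathmins (Stmn2, Stmn3 and Stmn4), the phospholipid phosphatase related protein Plppr3 and the growth cone protein Gap43. They are 10 of the 18154 rat genes measured with a single symbol. Each was taken by its symbol from the gene-level rows, where each has 1 row, together with its 107 exon-level probe sets. The genes were chosen by their differences between the clones on these same arrays, at gene and exon level, so every value of these 10 genes below is a description and none carries a test. By mean level, 8 of the 10 reach the median of these 18154 genes. The others, Dpysl4 (49.34% of genes have a lower mean) and Stmn4 (20.17%), lie below it.

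The cells were INS1E, a rat insulinoma line that secretes insulin and is used as a model of the pancreatic beta cell. Of the 3 stably transfected clones, the control carried the empty plasmid pcDNA3, the hIAPP clone carried human islet amyloid polypeptide and the rIAPP clone carried the rat polypeptide. Beta cells secrete this peptide, also called amylin, with insulin, and the human form aggregates into amyloid whereas the rat form does not. All 3 were grown in RPMI with 11.1 mM glucose and geneticin and collected after 3 days. Each was measured on 2 single-colour rat gene arrays, lettered a and b. Each group is 1 clone, so the transgene and other properties of the clone cannot be told apart. The labels do not say whether a and b were grown as separate cultures, so the p-values measure only a spread between samples that may be technical.

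CRMPs are cytosolic phosphoproteins that bind tubulin and relay semaphorin signals at the growth cone, where phosphorylation by Cdk5 and GSK3 releases them from microtubules. Stathmins bind free tubulin dimers and promote microtubule disassembly, and Stmn2, Stmn3 and Stmn4 are the neuron-enriched members anchored to membranes. Plppr3 is an axonal membrane protein linked to filopodia and branch formation, and Gap43 is a protein kinase C substrate on the inner face of the growth cone membrane. Endocrine cells of the islet share much of this neuronal programme, including vesicle release machinery and cytoskeletal proteins.

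Values are log2 intensities normalised by RMA, and a difference of 1 is a 2-fold change. A level of one gene cannot be set against that of another on an array, so differences are given only between clones. Ranks by mean level, quartiles and summed marker levels serve only as a rough guide to brightness. Arrays of 1 clone correlated across genes at Pearson r of 0.9987 to 0.9990 and arrays of different clones at 0.9934 to 0.9955. All 12 beta cell markers measured lay above the arrays' lower quartile, and against control 4 rose and 4 fell in hIAPP, and 3 rose and 2 fell in rIAPP. Ins1, which encodes insulin, was 13.30 and 13.19 on the control arrays, 12.60 and 12.74 on the hIAPP arrays and 12.82 and 12.66 on the rIAPP arrays, and fell in both transfected clones (limma adjusted p = 0.00243 and 0.00565). Ucn3, a peptide of mature beta cells, rose in hIAPP by 1.41 (adjusted p = 7.55e-05) and differed by 0.01 in rIAPP (adjusted p = 0.963). The transcription factor Nkx6-1 fell in hIAPP by −0.42 (adjusted p = 0.00377), a call that exon-level medians ended. The other beta cell calls, each lost without at least 1 array, were falls of Ins2 in both clones (−0.74 and −0.64) and Nkx2-2 in hIAPP (−0.25), and rises of Slc30a8 in hIAPP (0.24), of Mafa (0.21 and 0.35) and Kcnj11 (0.20 and 0.22) in both, and of Slc2a2 in rIAPP (0.19). Among 8 neuronal markers only Rbfox3, a neuronal splicing factor, was called. It was 10.26 and 10.34 in the control, 9.56 and 9.55 in hIAPP and 9.08 and 9.08 in rIAPP, a fall of −0.74 and −1.21 (adjusted p = 7.78e-05 and 1.32e-05). The summed level of the neuronal list ran from 14.21 to 14.24 in control, 14.14 to 14.17 in hIAPP and 14.19 to 14.19 in rIAPP, with 0 of 8 markers at or below the lower quartile. The summed level of the 8 fibroblast and endothelial markers ran from 12.13 to 12.13, 11.69 to 11.80 and 11.56 to 11.59 in the same order, with Dcn and Lum at or below the lower quartile and Thy1 the 1 marker called (−0.46 and −0.69). That of the 8 macrophage and leukocyte markers ran from 10.51 to 10.54, 11.06 to 11.11 and 11.04 to 11.04, with Ptprc, Itgam and Cd3e at or below the lower quartile; Cd4 was called in both clones (0.78 and 0.70), Csf1r in hIAPP (0.30) and Cd68 in rIAPP (0.37). Sums for the 6 glial markers, among which S100b was at or below the lower quartile, were 11.54 to 11.56, 11.34 to 11.42 and 11.25 to 11.37, and Mbp was called in rIAPP (−0.32; 0.12 from exon-level medians). Markers of other islet cells called were Gcg in hIAPP (0.17), Etv1 in both clones (−0.20 and −0.23) and Fev in rIAPP (−0.61), and of acinar cells Bhlha15 in rIAPP (0.21). Of the calls against control in these other lists, those of Rbfox3, Thy1, Cd4 and Fev held without each array in turn. Exon-level medians ended that of Fev (limma adjusted p = 0.0505). The fibroblast and glial sums were highest in the control and the macrophage sum lowest there. Such a sum, the log2 of summed intensities, mostly follows its brightest markers. Median differences from control in hIAPP and rIAPP were −0.08 and −0.07 for fibroblast, −0.08 and 0.0030 for glial and 0.01 and 0.04 for macrophage markers. The part of these markers in the differences below was not tested. In whole cultures, fewer cells with a transcript and less transcript per cell cannot be told apart.

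The start regions of 3 genes whose levels differ between the clones in unlike ways are shown: Plppr3 (control highest, rIAPP lowest), Stmn3 (about equally low in both transfected clones) and Dpysl5 (highest in hIAPP). Each window holds the 250 bases before and 50 after a RefSeq gene start in build GRCr8, 5′ to 3′ on the gene's strand, with GC boxes (GGGCGG on either strand) in capitals. Plppr3 is at chr7:10481539-10481838 on the plus strand, Stmn3 at chr3:188802445-188802744 on the minus strand and Dpysl5 at chr6:31379299-31379598 on the minus strand.
Plppr3: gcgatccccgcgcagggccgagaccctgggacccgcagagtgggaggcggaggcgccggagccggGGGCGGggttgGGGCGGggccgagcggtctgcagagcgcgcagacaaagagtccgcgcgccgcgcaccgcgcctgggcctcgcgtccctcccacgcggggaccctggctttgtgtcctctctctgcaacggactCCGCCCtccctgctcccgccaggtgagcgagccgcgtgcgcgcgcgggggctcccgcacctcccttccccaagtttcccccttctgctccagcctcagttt
Stmn3: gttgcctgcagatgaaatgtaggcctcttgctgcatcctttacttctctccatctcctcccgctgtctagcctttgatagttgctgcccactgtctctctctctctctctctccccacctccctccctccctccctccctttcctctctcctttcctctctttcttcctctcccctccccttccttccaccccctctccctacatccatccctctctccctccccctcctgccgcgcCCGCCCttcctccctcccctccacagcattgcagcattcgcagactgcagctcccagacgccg
Dpysl5: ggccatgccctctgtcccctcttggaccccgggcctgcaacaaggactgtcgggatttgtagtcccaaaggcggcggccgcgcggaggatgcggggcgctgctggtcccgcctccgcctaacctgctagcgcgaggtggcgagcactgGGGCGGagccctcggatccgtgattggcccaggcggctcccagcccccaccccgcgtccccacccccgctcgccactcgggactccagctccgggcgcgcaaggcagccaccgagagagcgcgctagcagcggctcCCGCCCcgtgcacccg

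RefSeq windows were matched for 6 of the 10 genes, 7 windows in all, since Dpysl3 has 2 annotated starts. All 7 hold a GC box, with 3 in Plppr3, 1 in Stmn3, 2 in Dpysl5, 6 in Crmp1, 1 in Dpysl4 and 3 and 1 in those of Dpysl3; the motif is in 33.1% of all 33469 rat windows of this length. GC content was 74.67% for Plppr3, 73.67% for Dpysl5, 60.0% for Stmn3 and 77.67% for Crmp1, against a median of 51.67% over all windows. Plppr3, Dpysl5 and Crmp1 held 37, 33 and 40 CpG dinucleotides, the windows of Dpysl3 25 and 26, that of Dpysl4 10 and that of Stmn3 7, against a median of 7. On both strands an E-box (CANNTG) was found in Plppr3, Stmn3 and both Dpysl3 windows (72.1% of all windows) and a CCAAT box in Dpysl5 (37.5%). The letters GGACAG, part of the binding element of the repressor REST, were found in Dpysl5 and 1 Dpysl3 window (21.7% of all windows). TATAAA (14.2%), TGACGTCA (1.83%) and TTCAGCACC (0.36%) were in 0 of the 7. These matches describe letters in the windows, and motifs that overlap each other were counted separately.

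Among the CRMPs, Dpysl3 (CRMP4) was lowest in the rIAPP clone and Dpysl5 (CRMP5) highest in the hIAPP clone. Dpysl3, which binds actin and tubulin in growth cones, read 10.22 and 10.24 on the control arrays, 9.88 and 9.77 on the hIAPP arrays and 8.11 and 8.03 on the rIAPP arrays. The 3 clones did not overlap, and hIAPP lay between the control and rIAPP. The hIAPP mean differed from control by −0.41 (SE 0.0571 from the limma fit, n = 2 arrays a clone, as for all 10 genes) and the rIAPP mean by −2.16, which is 0.223 of the control intensity. Dpysl3 in hIAPP was thus 3.37-fold that in rIAPP (a log2 difference of 1.75). Of all 18154 genes, 99.95% had a smaller difference between rIAPP and control than Dpysl3, and 94.26% had a smaller one between hIAPP and control.

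Dpysl5, a CRMP that in neurons restrains neurite outgrowth, moved the other way. It read 11.05 and 11.13 in the control, 11.94 and 11.98 in hIAPP and 11.44 and 11.44 in rIAPP. All 4 transfected arrays lay above both control arrays, and hIAPP lay above rIAPP. The differences from control were 0.87 for hIAPP (1.82-fold, SE 0.0509) and 0.35 for rIAPP (1.27-fold), and hIAPP exceeded rIAPP by 0.52. Dpysl3 and Dpysl5 therefore differed from control in opposite directions in both clones, and shared only that hIAPP was above rIAPP.

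The remaining CRMPs differed less than Dpysl3 and Dpysl5 in each comparison. Dpysl2 (CRMP2), the tubulin-binding member that promotes axon formation, read 13.00 and 13.02 in the control, 12.91 and 12.91 in hIAPP and 12.80 and 12.79 in rIAPP. The order control, hIAPP, rIAPP was the same as for Dpysl3 and without overlap, with smaller differences from control of −0.10 and −0.21 (SE 0.0457). Crmp1, which takes part in the collapse response to semaphorin 3A, read 12.09 and 12.07 in the control, 12.07 and 12.13 in hIAPP and 11.87 and 11.81 in rIAPP. Control and hIAPP overlapped (difference 0.02, SE 0.0504), and rIAPP lay below both (−0.24 from control). Dpysl4 (CRMP3) read 8.40 and 8.19 in the control, 8.39 and 8.53 in hIAPP and 8.35 and 8.45 in rIAPP. Its clones overlapped in every pairing, and its differences from control of 0.17 and 0.11 (SE 0.0841) were smaller than the 0.21 between the control arrays. Of all genes, 83.07%, 86.13% and 56.11% had a smaller difference between rIAPP and control than Dpysl2, Crmp1 and Dpysl4.

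**Figure D1:**
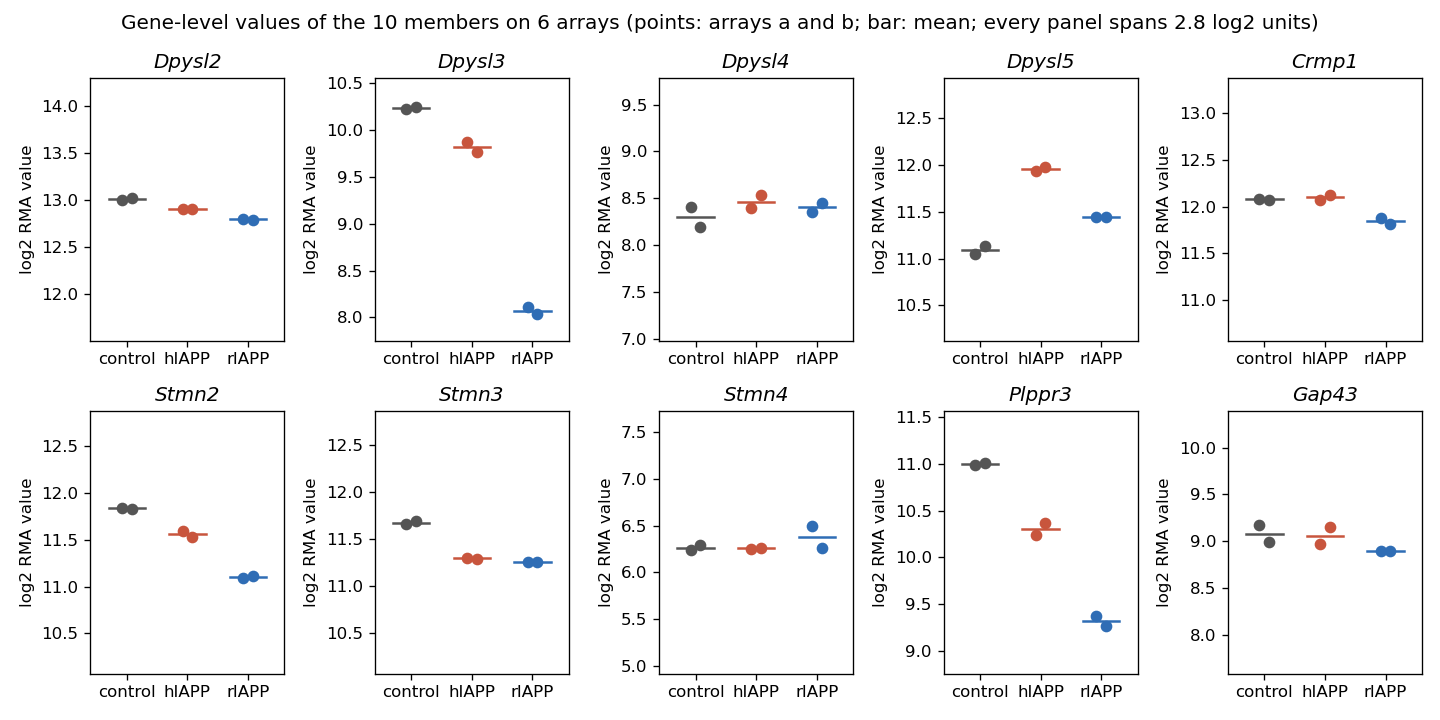
Gene-level log2 RMA value (y axis) of each of the 10 genes in the control, hIAPP and rIAPP clones (x axis); points are arrays a and b, bars are means, and every panel spans the same range of log2 units. Dpysl3 and Plppr3 step down from control through hIAPP to rIAPP, Dpysl5 is highest in hIAPP, and the clones overlap for Dpysl4, Stmn4 and, between control and hIAPP, for Crmp1 and Gap43.

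Stmn2 and Stmn3 were lower in both transfected clones than in the control, with steps of different size between hIAPP and rIAPP. Stmn2 (SCG10), a growth cone protein that destabilises microtubules, read 11.84 and 11.83 in the control, 11.60 and 11.53 in hIAPP and 11.10 and 11.12 in rIAPP. No pair of clones overlapped, and rIAPP was lowest. Stmn2 differed from control by −0.27 in hIAPP (0.827 of the control intensity, SE 0.0495) and by −0.73 in rIAPP (0.603 of it), and hIAPP exceeded rIAPP by 0.46. Stmn3 (SCLIP), a related microtubule regulator of neurons, read 11.66 and 11.69 in the control, 11.30 and 11.29 in hIAPP and 11.26 and 11.25 in rIAPP. Both transfected clones lay clearly below the control and next to each other. Its differences were −0.38 and −0.42 (SE 0.0463), and hIAPP and rIAPP differed by 0.04, less than that SE. Stmn4 (RB3) read 6.24 and 6.29 in the control, 6.25 and 6.27 in hIAPP and 6.50 and 6.26 in rIAPP. Those readings lie close to the arrays' lower quartile of 6.09 to 6.13, and all clones overlapped. The rIAPP difference of Stmn4, 0.12, rested on array a: it was −0.0033 without rIAPP array a and 0.24 without rIAPP array b.

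Plppr3 had the second largest difference of the group. It read 10.99 and 11.01 in the control, 10.24 and 10.36 in hIAPP and 9.38 and 9.26 in rIAPP. As with Dpysl3, the clones stepped down from control to hIAPP to rIAPP with no overlap. The differences from control were −0.70 in hIAPP (0.617 of the control intensity, SE 0.0631) and −1.68 in rIAPP (0.313 of it), and hIAPP was 1.97-fold rIAPP. Gap43 read 9.17 and 8.99 in the control, 8.97 and 9.15 in hIAPP and 8.90 and 8.89 in rIAPP. Control and hIAPP overlapped, both rIAPP arrays lay below the other four, and the difference of −0.18 between rIAPP and control was as wide as the gap between the control arrays. The 10 genes lie on 9 chromosomes, Stmn4 and Dpysl2 on the same one. Medians over the 50 neighbouring genes of each differed between clones by −0.12 to 0.12, the largest being those around Dpysl3, and by at most 0.0539 in size around the other nine.

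**Figure D2:**
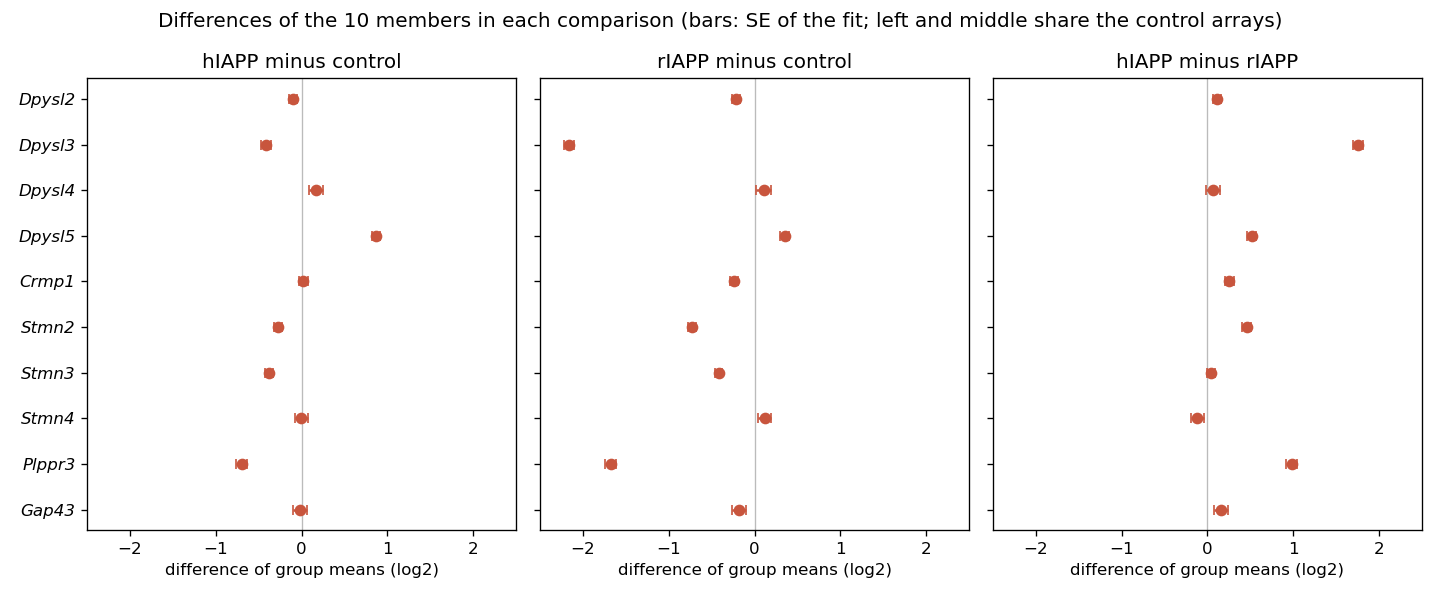
Difference of group means (x axis, log2) of the 10 genes in each comparison, with bars for the SE of the limma fit; the left and middle panels share the control arrays. Dpysl3 (−2.16) and Plppr3 (−1.68) lie farthest from 0 in rIAPP, Dpysl5 (0.87) in hIAPP, and in the right panel every gene except Stmn4 lies above 0.

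The following counts describe the 10 genes beside all genes, and nothing is drawn from them because the genes were chosen with these comparisons known. The arrays of hIAPP and control did not overlap for 6 of the 10 genes, 1 higher and 5 lower, against 57.8% of all genes (27.2% and 30.5%). Those of rIAPP and control did not overlap for 8, 1 higher and 7 lower, against 60.5% (31.3% and 29.2%), and those of hIAPP and rIAPP for 8, all higher in hIAPP, against 52.9% (24.2% higher and 28.7% lower). A difference of at least 0.5 in size was reached by 2, 3 and 3 of them, against 3.92%, 3.00% and 2.29% of all genes. The median difference of the 10 genes was −0.06, −0.23 and 0.21, and that of all genes −0.01, −0.0018 and −0.0093. Both comparisons against control use the same control arrays, so they are not independent of each other.

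The exon-level probe sets, 4 to 17 for each gene and from the same arrays, show how evenly each difference was shared among them. They are numbered in order of platform ID, and their places along a transcript were not determined. Over all probe sets with a symbol, arrays did not overlap in the lower direction in 23.7% for hIAPP against control and 22.4% for rIAPP against control, and in the higher direction in 25.4% and 27.7%. For Dpysl3, 12 of 14 probe sets were lower in hIAPP without overlap (median over the 14 of −0.47) and 13 of 14 were lower in rIAPP (median −2.27, from −3.15 to −0.02). The exception, its last probe set, read 6.65 to 7.02 on all 6 arrays, within 0.2 of the exon-level lower quartile. For Dpysl5, 13 of 13 probe sets were higher in hIAPP and 12 of 13 in rIAPP, with medians of 0.89 and 0.40. The third probe set of Dpysl5 showed the widest step, from 10.08 and 10.06 in control to 11.48 and 11.49 in hIAPP and 10.80 and 10.94 in rIAPP. All 6 probe sets of Stmn2 and all 4 of Stmn3 were lower without overlap in both clones, with medians of −0.25 and −0.71 for Stmn2 and −0.42 and −0.43 for Stmn3. Between hIAPP and rIAPP, where 20.4% of all probe sets were higher and 23.3% lower without overlap, 13 of 14 probe sets of Dpysl3, 13 of 13 of Dpysl5, 6 of 6 of Stmn2 and 16 of 17 of Crmp1 were higher in hIAPP. For Stmn3 only 1 of 4 was.

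The probe sets of Plppr3 differed in both directions. Of its 11 probe sets, annotated under the older symbol Lppr3, 9 were lower in both clones without overlap, while 2 were higher in both. Over the 11 the median differences were −0.75 in hIAPP and −1.98 in rIAPP. The tenth probe set read 9.26 and 10.81 in the control, 11.38 and 11.53 in hIAPP and 11.08 and 11.40 in rIAPP. Its differences of 1.42 and 1.21 stand beside a wide gap between the 2 control arrays. The eleventh read 7.44 and 7.73 in the control, 7.95 and 8.31 in hIAPP and 8.09 and 8.10 in rIAPP. Which transcript these last probe sets read was not tested. Crmp1 had 15 of 17 probe sets lower in rIAPP (median −0.24) but 7 higher and 2 lower in hIAPP, and Dpysl2 had 9 and 11 of 15 lower in hIAPP and rIAPP. Dpysl4 had 5 of 14 higher and 0 lower in hIAPP and 6 higher and 2 lower in rIAPP. Among the 4 probe sets of Gap43, 1 was higher and 1 lower in hIAPP and 1 lower in rIAPP. Stmn4, with 6 of 9 probe sets at or below the lower quartile on all arrays, had 3 higher and 3 lower in hIAPP.

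**Figure D3:**
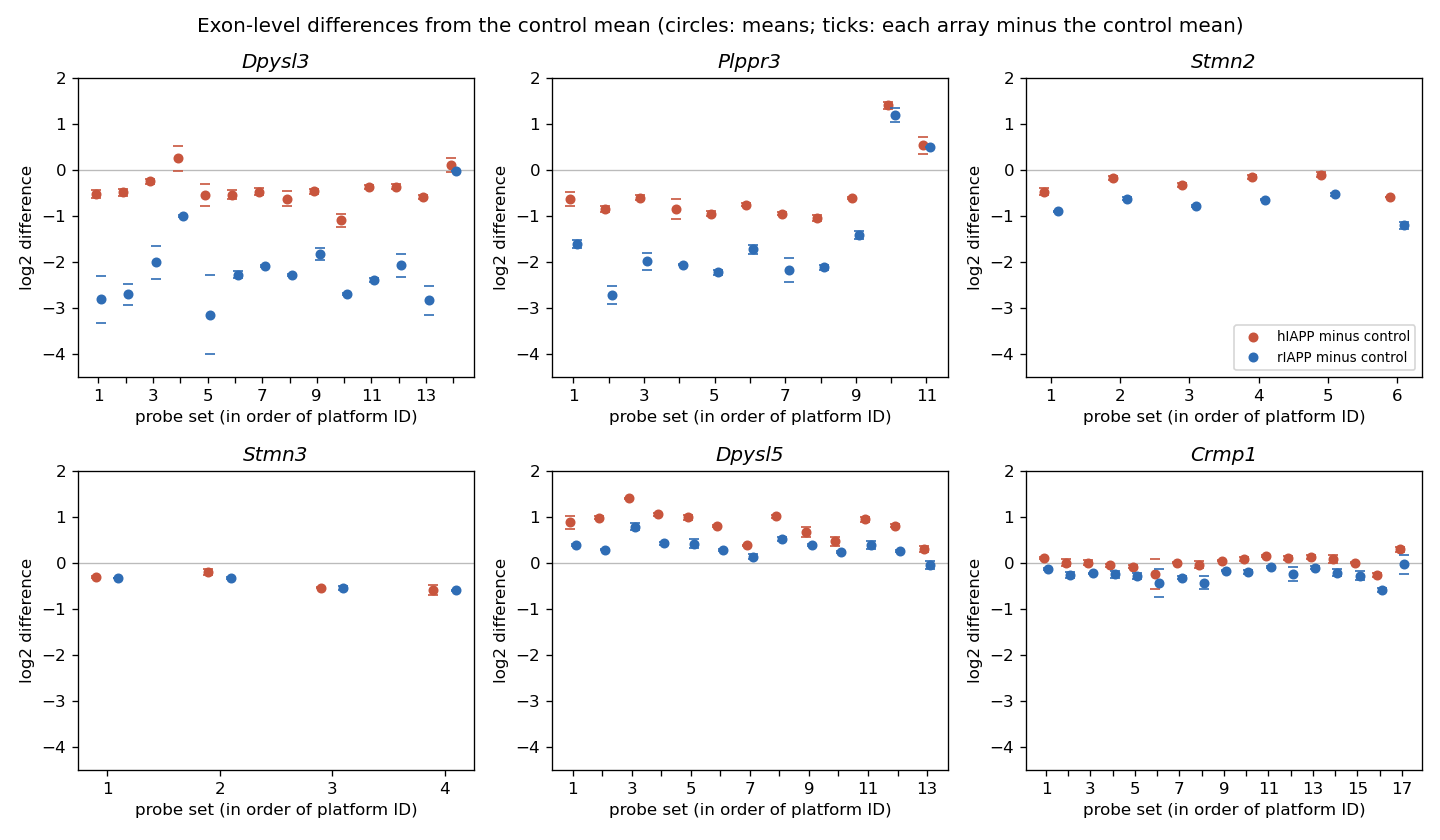
Difference from the control mean (y axis, log2) of each exon-level probe set (x axis, in order of platform ID) of 6 genes; circles are clone means and ticks single arrays. Probe sets of Dpysl3, Stmn2 and Stmn3 lie below 0 in rIAPP, the last of Dpysl3 only at −0.02, those of Dpysl5 lie above 0 in hIAPP, and the last 2 of Plppr3 lie above 0 against 9 below.

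The genes whose values were most like those of Dpysl3, Plppr3 and Stmn2 were ranked by Pearson r over the 6 arrays. Ranked were 224 genes whose clone means spanned at least 1 log2 unit. The genes described here, predicted loci, microRNAs and olfactory and vomeronasal receptors were left out before ranking. With 6 arrays from 3 clones, such an r mostly follows the order and spacing of 3 means. Dpysl3 was followed most closely by Gnat3 (r = 0.9993), Cdh2 (0.9988), Ano6 (0.9984), Il20ra (0.9976) and Fyb1 (0.9960). Of the 224 genes, 10 had an r over 0.99 with Dpysl3, and 1 each with Plppr3 and Stmn2. Gnat3, a taste G protein alpha subunit, read 12.30 and 12.36 in control, 11.38 and 11.31 in hIAPP and 6.49 and 6.23 in rIAPP. Those rIAPP readings lie close to the arrays' lower quartile of 6.09 to 6.13. Cdh2, which encodes N-cadherin, read 11.47 and 11.46, 11.23 and 11.19, and 10.28 and 10.30 in the same order. Plppr3 was followed by Hbegf (0.9932), Trib2 (0.9866), Ralyl (0.9854), Syk (0.9825) and Sncaip (0.9756). Hbegf, a growth factor of the EGF family, differed from control by −0.49 in hIAPP and −1.33 in rIAPP. Stmn2 was followed by Ralyl (0.9916), Cdh2 (0.9833), Gstm5 (0.9801), Sncaip (0.9798) and Hbegf (0.9793), of which Sncaip, which encodes a synuclein-interacting protein, differed by −0.25 and −1.05.

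Other genes of the same pathways were examined in 8 lists, 218 of 246 genes being measured. Calls were made at an adjusted p under 0.05 from the limma fit over all 18154 genes. The lists were drawn up with earlier results of these data known. Their shares of called genes are therefore a description beside those of all genes, and no conclusion about the pathways is drawn from them. In hIAPP against control 29 rose and 39 fell (31.19% called, against 19.0% of all genes, 10.1% higher and 8.92% lower), and in rIAPP 26 rose and 45 fell (32.57% against 16.0%, 8.70% higher and 7.29% lower). Between hIAPP and rIAPP 26 were higher and 19 lower in hIAPP (20.64% against 11.7%, 6.11% higher and 5.56% lower). The median differences of the lists, −0.02, −0.0092 and −0.01, were near those of all genes. The listed genes are brighter than most: among genes at or above the median level, fitted alone, 47.0%, 48.8% and 39.9% of 168 listed genes were called, against 40.7%, 38.8% and 29.4% of all. Of the calls against control, 44 of 68 in hIAPP and 37 of 71 in rIAPP were made again without each array in turn, and 27 and 30 from medians of exon-level probe sets. Of the 45 calls between hIAPP and rIAPP, 18 and 15 were.

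Among 17 family relatives, 2 rose and 3 fell in hIAPP (29.41% called, against 19.0% of all genes). The rIAPP clone had 3 rises and 7 falls (58.82% against 16.0%). These shares of all genes also stand beside each list below. Of the relatives' calls, 4 of 5 in hIAPP and 7 of 10 in rIAPP held without each array in turn. From exon-level medians 2 and 5 were made again. Plpp3, a lipid phosphate phosphatase of the same superfamily as Plppr3, read 7.17 and 7.17 in control, 8.15 and 8.16 in hIAPP and 8.23 and 8.34 in rIAPP. It rose by 0.98 and 1.12 (adjusted p = 3.17e-05 and 2.38e-05). Plpp1 rose by 0.46 and 0.47 (adjusted p = 0.000614 and 0.000712), though not from exon-level medians (0.129 and 0.125). Stmn1, the broadly expressed stathmin, fell in rIAPP (−0.42, adjusted p = 0.00147) and differed by −0.10 in hIAPP without passing (adjusted p = 0.23). Marcksl1 and Basp1, which like Gap43 are membrane-bound calmodulin-binding proteins, fell in rIAPP by −0.57 and −0.51 (adjusted p = 0.00253 and 0.00372); Marcksl1 missed the threshold from exon-level medians (0.0502). Gprin3 and Plpp2 fell in hIAPP (−0.40 and −0.37, adjusted p = 0.00145 and 0.00197; 0.141 for Plpp2 from exon-level medians). In rIAPP the falls of Gprin3 (−0.26) and Plpp2 (−0.22), and in hIAPP that of Basp1 (−0.30), each passed with all 6 arrays but not when either control array or either array of that clone was left out, at adjusted p of 0.0525 to 0.0784, 0.0828 to 0.126 and 0.0914 to 0.115.

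Of 25 semaphorins, plexins and neuropilins, the ligands and receptors upstream of CRMPs, 4 rose and 2 fell in hIAPP (24% called). For rIAPP, 5 rose and 6 fell (44%). Nrp1, the semaphorin 3 co-receptor, read 9.67 and 9.76 in control, 10.35 and 10.24 in hIAPP and 10.25 and 10.20 in rIAPP, a rise of 0.59 and 0.51 (adjusted p = 0.000556 and 0.00134). The secreted ligand Sema3d rose in hIAPP by 0.97 (adjusted p = 7.02e-05) and differed by 0.15 in rIAPP (adjusted p = 0.161), and the clones differed from each other by 0.82 (adjusted p = 0.000302). Sema3a, the ligand whose collapse signal CRMPs relay, fell in rIAPP alone among the comparisons with control (−0.42, adjusted p = 0.00141, and −0.06 in hIAPP, adjusted p = 0.474), with hIAPP 0.36 above rIAPP (adjusted p = 0.00345). Sema3a read 6.77 and 6.82 in control, 6.73 and 6.74 in hIAPP and 6.36 and 6.40 in rIAPP. All these readings lie below the arrays' median of 7.53 to 7.57. Those of rIAPP are nearest the lower quartile of 6.09 to 6.13. The genes around Sema3a, Sema3c and Sema3d had a median difference of 0.25 in hIAPP. Centred on these neighbours, Sema3a differed by −0.31 in hIAPP (adjusted p = 0.00485) and by 0.16 between the clones (adjusted p = 0.0854), Sema3c by 0.36 in hIAPP (adjusted p = 0.00435) and Sema3d by 0.72. From exon-level medians Sema3a differed by −0.72 in rIAPP (adjusted p = 0.0173). Sema3c and Sema4a rose in hIAPP (0.60 and 0.30, adjusted p = 0.000338 and 0.00487), and Sema4a rose in rIAPP (0.59, adjusted p = 0.000281). Sema4f fell in hIAPP by −0.32 (adjusted p = 0.0049; 0.0738 from exon-level medians). In rIAPP 3 of the 11 calls of this list held without each array in turn. Those of Sema3c (0.31) and Sema4f (−0.21) were lost without control array b or rIAPP array a for Sema3c, and without any control or rIAPP array for Sema4f, at adjusted p of 0.0574 to 0.0708 and 0.0546 to 0.165.

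Of 24 CRMP kinases and binding partners, 3 rose and 4 fell in hIAPP (29.17% called), and 0 rose and 4 fell in rIAPP (16.67%). The rIAPP share was near the 16.0% of all genes. Cdk5r1, the p35 activator of the CRMP kinase Cdk5, read 9.06 and 9.15 in control, 8.54 and 8.67 in hIAPP and 8.50 and 8.49 in rIAPP, a fall of −0.50 and −0.61 (adjusted p = 0.00143 and 0.000772). The kinesin heavy chains Kif5a and Kif5c, motors of axonal transport, fell in both clones, Kif5a by −0.82 and −0.62 (adjusted p = 0.000543 and 0.0027) and Kif5c by −0.30 and −0.42 (adjusted p = 0.00582 and 0.0018). From exon-level medians Cdk5r1 and Kif5c were not called (0.065 and 0.0723, and 0.11 and 0.0764). Chn2, a chimaerin that switches off the GTPase Rac, rose in hIAPP (0.76, adjusted p = 0.000368; 1.16 from exon-level medians) and exceeded rIAPP by 0.57 (adjusted p = 0.00245; 0.0701 from exon-level medians). Its relative Chn1 passed in rIAPP (−0.33, adjusted p = 0.0325), but of the fits that leave out 1 array only that without control array a called it (0.0524 to 0.154 in the other five, and −0.21 without control array b).

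Of 41 tubulins and microtubule-associated proteins, 5 rose and 12 fell in hIAPP (41.46% called), and 2 rose and 6 fell in rIAPP (19.51%). Nav3, a microtubule plus-end protein, fell most, by −1.16 and −1.01 (adjusted p = 3.17e-05 and 7.83e-05). The doublecortin-like kinase Dclk1 fell by −0.68 and −0.95 (adjusted p = 0.000168 and 4.33e-05). Mapt, which encodes tau, read 11.40 and 11.33 in control, 11.18 and 11.25 in hIAPP and 10.75 and 10.69 in rIAPP, and fell in rIAPP by −0.64 (adjusted p = 0.000333; −0.15 in hIAPP, adjusted p = 0.102). Clip2, another plus-end protein, fell in rIAPP by −0.43 (adjusted p = 0.00195). In hIAPP 12 of the 17 calls of this list did not hold without each array in turn. They include Map6 (−0.37, adjusted p of 0.053 and 0.0541 without control array a or b). Another is Tubb2b (0.46, adjusted p of 0.075 to 0.226 without control array a, hIAPP array a or hIAPP array b), whose difference turned to −0.30 from exon-level medians (adjusted p = 0.183).

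Among 35 neurotrophin and axon guidance receptors and ligands, 7 rose and 5 fell in hIAPP (34.29% called). For rIAPP, 10 rose and 5 fell (42.86%). Ngfr, the p75 neurotrophin receptor, read 8.25 and 8.48 in control, 10.20 and 10.20 in hIAPP and 10.39 and 10.34 in rIAPP. Its rises of 1.83 and 2.00 (adjusted p = 9e-06 and 8.87e-06) were the largest in the lists. The ephrin receptor Epha5 rose by 1.35 and 1.11 (adjusted p = 1.07e-05 and 3.43e-05) and the neurotrophin 3 receptor Ntrk3 by 0.66 and 0.87 (adjusted p = 0.000126 and 4.21e-05). The netrin receptor Unc5c fell by −0.63 and −0.42 (adjusted p = 0.000189 and 0.00176; 0.0649 for rIAPP from exon-level medians). Of the list's calls 8 of 12 in hIAPP and 8 of 15 in rIAPP held without each array in turn. Slit1, a repellent ligand, rose in rIAPP by 0.58 (adjusted p = 0.000265) and differed by 0.08 in hIAPP (adjusted p = 0.329).

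Among 27 actin regulators of the growth cone, 3 rose and 3 fell in hIAPP (22.22% called). For rIAPP, 1 rose and 7 fell (29.63%). Srgap1, which acts downstream of Slit receptors, fell by −0.97 and −0.53 (adjusted p = 1.73e-05 and 0.000377). Ablim3, an actin-binding LIM protein, fell by −0.43 and −0.91 (adjusted p = 0.000826 and 3.43e-05). Gsn, which encodes the actin-severing gelsolin, rose in hIAPP by 0.54 (adjusted p = 0.000261; −0.08 in rIAPP, adjusted p = 0.306). The GTPase Rnd2 fell by −0.41 and −0.37 (adjusted p = 0.00187 and 0.00356; 0.0689 for rIAPP from exon-level medians). In rIAPP 3 of the 8 calls of this list held without each array in turn. Srgap3 passed there (−0.33, adjusted p = 0.0378) but of the fits that leave out 1 array only in that without control array a, the other five giving 0.0513 to 0.2.

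Among 26 neuronal filament and axonal adhesion genes, 4 rose and 7 fell in hIAPP (42.31% called). For rIAPP, 3 rose and 6 fell (34.62%). The adhesion proteins Cntn1 and Ncam2 fell in both clones, Cntn1 by −0.95 and −0.81 (adjusted p = 4.77e-05 and 0.000139) and Ncam2 by −0.82 and −0.73 (adjusted p = 7.59e-05 and 0.000175). The synaptic adhesion gene Cadm1 rose by 1.00 and 0.63 (adjusted p = 0.000195 and 0.00235). Sncb, which encodes beta-synuclein, fell by −0.55 and −0.53 (adjusted p = 0.00336 and 0.005; 0.0776 for rIAPP from exon-level medians). Of 23 genes of the REST complex and neuroendocrine transcription factors, 1 rose and 3 fell in hIAPP (17.39% called, against 19.0% of all genes). For rIAPP, 2 rose and 4 fell (26.09%). Jun, a subunit of AP-1, read 10.20 and 10.21 in control, 8.73 and 8.52 in hIAPP and 9.73 and 9.78 in rIAPP, a fall of −1.58 and −0.45 (adjusted p = 1.4e-05 and 0.0058). From exon-level medians Jun differed by −0.89 and −0.16 (adjusted p = 0.00331 and 0.367), and from the mean of its rows by −0.91 and −0.20 (adjusted p = 8.47e-05 and 0.075). Sox4 fell in rIAPP by −0.58 (adjusted p = 0.00108; 0.20 in hIAPP, adjusted p = 0.062), and Myt1l, a neuronal transcription factor, fell by −0.28 and −0.43 (adjusted p = 0.00826 and 0.00143), not called from exon-level medians (0.296 and 0.122). Rcor1, a REST corepressor, passed in both clones (0.24 and 0.24), but in hIAPP not without any control or hIAPP array, and in rIAPP not without control array a, control array b or rIAPP array b, at adjusted p of 0.0536 to 0.0867 and 0.0996 to 0.155. Klf6 in rIAPP (−0.31) likewise failed without control array b, rIAPP array a or rIAPP array b (0.0788 to 0.0824).

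**Figure D4:**
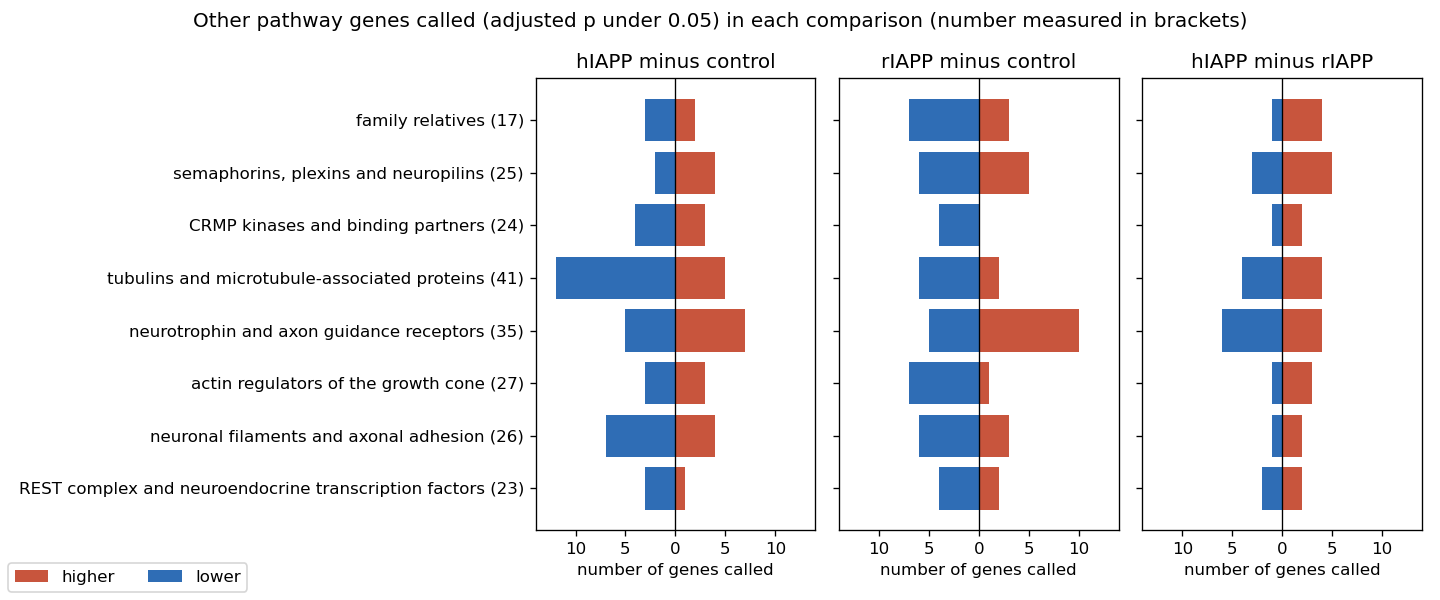
Number of genes called (x axis, adjusted p under 0.05 in the limma fit) in each of 8 pathway lists (y axis, genes measured in brackets) for the 3 comparisons; red bars count higher and blue bars lower genes. Calls run in both directions in nearly every list, the neurotrophin and guidance list having the most rises in rIAPP (10) and the tubulin and microtubule list the most falls in hIAPP (12).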

How the data were processed

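RNA of 3 INS1E clones was measured on 6 Affymetrix rat gene arrays, 2 per clone. The authors deposited log2 values at gene level (36685 transcript clusters) and exon level (220231 probe sets), made with Affymetrix Expression Console and RMA per the submitters' processing notes, with no version stated there. RMA subtracts background, makes the arrays' distributions equal by quantiles and combines probes. No further normalization was applied.

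Gene names came from the platform's annotation table: 18511 gene-level rows had 1 symbol, 575 several and 17599 none. Only rows with 1 symbol were used, the brightest per symbol, leaving 18154 genes; 166557 exon-level probe sets had 1 symbol. Older symbols were updated through the GRCr8 annotation (32 and 16683 rows). The build behind the arrays: not given in the sources used here. Only the promoter windows, from RefSeq, carry coordinates.

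Clone means came from a limma 3.58.1 fit (R 4.3.3) over all 6 arrays (3 residual and 4.39 prior degrees of freedom), with Benjamini-Hochberg adjustment over 18154 genes and a threshold of 0.05. With 2 arrays per clone, their number limits the precision. The alternatives were 13 for each result: leaving out each array, a replicate block, repeated quantile normalization, an intensity trend, bright genes only, row means, exon-level medians and centring on neighbouring genes. Letters a and b were not shown to pair samples (correlations of deviations −0.0414, 0.0008 and 0.0002).

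The 10 genes and all gene lists were chosen with earlier results of these data known. Named genes are the 10 genes, up to 4 called genes of largest difference per list and comparison against control, the 5 genes most like Dpysl3, Plppr3 and Stmn2, beta cell markers and other markers that were called. Stmn1 and Dbn1 were named after their values were seen.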

Additional observations from a re-analysis of the deposited data

Results flagged for a closer look

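Dbn1 and Atf3, 2 of the listed pathway genes, differed from control in opposite directions in the 2 transfected clones, with the difference between hIAPP and rIAPP itself tested. Dbn1, which encodes the actin-binding protein drebrin, was higher in hIAPP (0.38) and lower in rIAPP (−0.26), a difference of 0.64 (limma adjusted p = 0.00019). Its rIAPP call was lost without control array a, rIAPP array a or rIAPP array b (adjusted p of 0.0534 to 0.0613), and exon-level medians ended both of its calls against control (0.156 and 0.0718). Atf3, a stress-induced transcription factor, was lower in hIAPP (−0.32) and higher in rIAPP (0.26), a difference of −0.59 (adjusted p = 0.000492; 0.126 from exon-level medians, which also ended both calls against control, 0.274 and 0.44). The rIAPP call of Atf3 was lost without any one of the control or rIAPP arrays (adjusted p of 0.0553 to 0.0833). Dpysl3, Dpysl5 and the other 8 genes described above were not examined this way because their choice used these comparisons. Groups of 2 arrays are too small for a check of single outlying arrays.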

How the results depend on the processing

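Leaving out each array gave 1999 to 2871 calls over all genes for hIAPP against control (3458 with all arrays), 1217 to 2862 for rIAPP against control (2904) and 922 to 1779 between them (2119). For listed pathway genes it gave 47 to 60 (68), 41 to 70 (71) and 20 to 41 (45). Of the 10 genes described, 7 to 8 differences of at least 0.5 in size remained, against 8 with all arrays. Medians of exon-level probe sets gave fewer calls: 1336, 949 and 527 over all genes, and 30, 34 and 15 among listed genes. An intensity trend in the variance prior gave 69 listed genes between hIAPP and rIAPP. With the letters as a replicate block the calls were 3113, 2562 and 1800 over all genes and 67, 67 and 42 among listed genes. The block leaves differences of clone means unchanged, so the 8 differences of at least 0.5 were fixed in advance. Exon-level medians reversed the sign of Tubb2b in hIAPP (−0.30) and of Mbp in rIAPP (0.12). For named pathway genes and markers, Stmn1 and Dbn1 included, 2271 results kept direction and side of the threshold, 264 lost the call, 40 gained it and 2 reversed. For the 10 genes 333 results moved by less than the spread between arrays and 51 by more, 16 of them with exon-level medians. For the genes most like Dpysl3, Plppr3 and Stmn2 these were 359 and 64. Many of these results could not move. The block, the trend and bright genes only cannot change a difference of clone means, nor can row means for genes with 1 row. For the 10 genes these settings gave 30, 30, 24 and 30 of the 333. Leaving out 1 array likewise cannot change the comparison without that clone. Dpysl4 and Stmn4 have no value among bright genes only. The causes were not tested.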
